A study of Mus musculus with 6 samples.

Results

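The E2F transcription factor and retinoblastoma (RB) family genes E2f1, E2f2, E2f3, E2f4, E2f7, E2f8, Rb1, Rbl1, Rbl2 and Tfdp1 were read in CD8+ T cells with and without the gene Id2. The 10 genes were chosen by symbol and matched to NCBI gene numbers, out of 16749 genes listed in at least 1 library. Flow-sorted CD8+ T cells came from the tissue labelled iLN of C57BL/6 mice and went to RNA-seq. The mice, according to the series title, bore tumors and had been given oxaliplatin, a platinum drug that damages DNA. The 3 knockout libraries came from mice labelled Cd4creId2f/f, in which Cre from the Cd4 promoter deletes floxed Id2 in T cells, and the 3 WT libraries came from mice labelled Id2f/f, which carry the same floxed alleles without Cre. Cre was thus present in the knockout group alone, and an effect of Cre cannot be told apart from that of Id2 loss. All 6 libraries share the drug and the tumor, so nothing here compares treated with untreated mice. The labels do not give the tumor, the age of the mice, the animals behind each sample or the exons of Id2 that are floxed, so the spread behind each p-value is that between samples and may be technical in part.

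E2F proteins bind DNA, most of them as dimers with a DP protein such as the product of Tfdp1, and control genes that a cell needs to enter S phase. The pocket proteins pRB (Rb1), p107 (Rbl1) and p130 (Rbl2) bind E2Fs and repress their targets in resting cells, until cyclin-dependent kinases phosphorylate the pocket proteins and release the E2Fs. E2f1, E2f2 and E2f3 encode activators, E2f4 a factor that acts mostly as a repressor with p107 and p130, and E2f7 and E2f8 the atypical E2Fs, which bind DNA without a DP partner and shut E2F targets down again later in the cycle. Several of these genes are themselves E2F targets. Id2 is best known as an inhibitor of E protein transcription factors, and its protein has also been described to bind pocket proteins.

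Libraries held between 7699181 and 7990095 expected counts in knockout and between 8307284 and 8495123 in WT. Id2 had 1.67, 2.64 and 2.12 FPKM in the knockout libraries, against 370.98, 146.76 and 149.01 FPKM in the WT libraries, a log2 fold change of -6.72 (adjusted p = 8.47e-05, edgeR). FPKM divides a gene's reads by transcript length and library size, so that levels can be set between genes. The CD8 T cell markers Cd8a, Cd8b1, Cd3d, Cd3e and Cd3g summed to between 2113 and 2667 FPKM in knockout and between 2139 and 2515 FPKM in WT, and the log2 fold changes of these 5 lay between -0.13 and 0.21, none past the threshold in edgeR, DESeq2 or limma or at an unadjusted p under 0.05. B cell transcripts were uneven within both groups. The 8 B cell markers summed to 485, 2015 and 437 FPKM in knockout replicates 1 to 3 and to 651, 2132 and 2496 FPKM in WT replicates 1 to 3. The 7 of these that were tested had log2 fold changes between -0.96 and -0.42, and none passed in edgeR, DESeq2 or limma or at an unadjusted p under 0.05. Markers of CD4 T cells summed to between 8.73 and 9.8 FPKM in knockout and between 8.21 and 12.4 in WT, and none of the 3 passed in edgeR, DESeq2 or limma or at an unadjusted p under 0.05. Markers of NK cells summed to between 4.28 and 5.72 FPKM in knockout and between 7.33 and 25.7 in WT, with Ncr1 under 1 FPKM in every library. Klre1, the 1 NK marker tested, had 3.31 to 5.15 FPKM in knockout and 5.83 to 25.1 in WT, and its log2 fold change of -1.74 did not pass in edgeR (adjusted p = 0.0530) or limma but did in DESeq2 (0.00266). Germinal centre B and plasma cell markers summed to between 5.78 and 14.9 FPKM in knockout and between 11.8 and 29.8 in WT, with Mef2b under 1 FPKM in every library. In edgeR 1 of the 3 tested, Jchain, fell. Mzb1, with a log2 fold change of -1.66, was lower at an unadjusted p under 0.05 in edgeR but did not pass (adjusted p = 0.102). Myeloid markers summed to between 33.9 and 39.97 FPKM in knockout and between 29.7 and 51.9 in WT, most of it Lyz2. None of the 4 tested passed in edgeR or limma, but 2 were lower at an unadjusted p under 0.05 and 1 of these, Cd68, in DESeq2 (adjusted p = 0.0357). Itgam had 0.37 to 0.72 FPKM in knockout and 1.09 to 7.91 in WT (log2 fold change -2.62, adjusted p = 0.0521, edgeR), and Cd68 had 4.22 to 5.3 FPKM in knockout and 6.11 to 12.4 in WT (log2 fold change -0.97, adjusted p = 0.0682, edgeR). Klre1, Itgam and Cd68 were each highest in WT replicate 1. WT replicates 2 and 3 had 5.83 and 9.54 FPKM of Klre1, 1.18 and 1.09 of Itgam, and 6.11 and 7.79 of Cd68. Erythroid markers summed to at most 12.3 FPKM in knockout and 0.34 in WT. The part of NK, myeloid, plasma and erythroid transcripts in the results below was not tested.

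Of the 10 family genes, 6 fell in knockout cells and none rose. E2f7, E2f8, E2f3, E2f2, Tfdp1 and Rbl1 were lower, E2f7 by the most, while E2f1, E2f4, Rb1 and Rbl2 did not pass the threshold. The test was the two-sided quasi-likelihood test of edgeR on rounded expected counts, fitted over 10890 genes with at least 1 FPKM in at least 3 libraries, with Benjamini-Hochberg adjusted p-values and a threshold of 0.05. Over all genes tested 11.9% passed this rule, with 8.77% lower and 3.14% higher, which is 955 and 342 genes. The median log2 fold change was -0.72 over the 10 family genes and 0.01 over all genes tested. All 10 passed the filter, but E2f3 and E2f7 reached 1 FPKM in the WT libraries alone. E2f8 reached it in each WT library and, among knockout libraries, in replicate 2 alone. The passing of E2f3, E2f7 and E2f8 thus leaned on the group where they were higher. At an unadjusted p under 0.05 in edgeR 8 were lower and 0 higher, DESeq2 gave 6 lower and 0 higher, and limma 5 lower and 0 higher. With the B cell markers as a covariate, 6 were lower and 0 higher. In bulk RNA such as this, fewer cells of a type and less RNA per cell cannot be told apart.

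**Figure D1:**
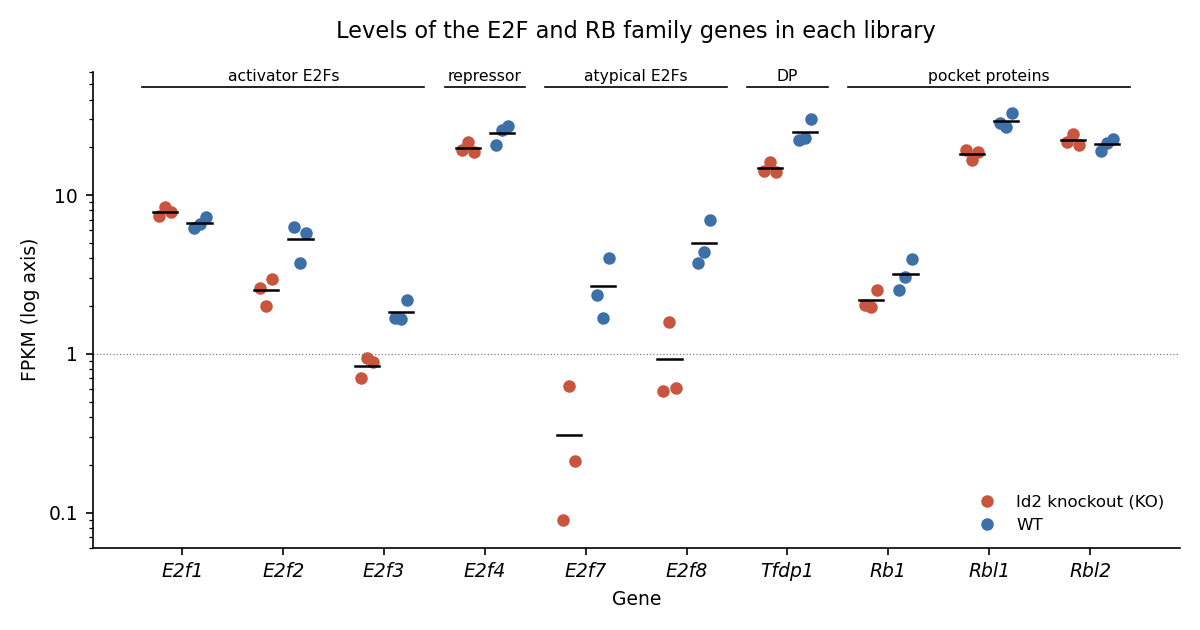
FPKM on a log axis of each family gene in the 3 knockout (left, red) and 3 WT (right, blue) libraries; each point is a library, black bars are means and the dotted line marks 1 FPKM. E2f7 lay between 0.09 and 0.63 FPKM in knockout and between 1.68 and 4.01 FPKM in WT, while the points of E2f1 lay slightly higher in knockout and those of Rbl2 overlapped.

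FPKM did not overlap between the groups for 8 of the 10 genes, against 32.1% of all genes tested. For 7 of these the knockout libraries were the lower ones, against 16.8% of all genes tested, and for E2f1 they were the higher ones, against 15.3%. E2f4 and Rbl2 overlapped.

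Promoter sequences of the genes that fell are given because these members were all lower and because several are known E2F targets. They are RefSeq windows of build GRCm38.p6, the build also called mm10, from 250 bases before to 50 bases after a listed start, 5′ to 3′ on the gene's strand. They were found for 8 of the 10 genes. E2f2, E2f3 and Tfdp1 have 2 windows each, of which the one that begins farther upstream is printed. Capitals mark an E2F motif (TTTCCCGC, TTTCGCGC, TTTGCCGC or TTTGGCGC) or the cell cycle genes homology region motif (CHR, TTTGAA), searched on both strands. Positions are of the leftmost base of a motif as printed, counted from the start, with -1 the base before it. In these windows no E2F motif overlapped a CHR motif.
E2f2: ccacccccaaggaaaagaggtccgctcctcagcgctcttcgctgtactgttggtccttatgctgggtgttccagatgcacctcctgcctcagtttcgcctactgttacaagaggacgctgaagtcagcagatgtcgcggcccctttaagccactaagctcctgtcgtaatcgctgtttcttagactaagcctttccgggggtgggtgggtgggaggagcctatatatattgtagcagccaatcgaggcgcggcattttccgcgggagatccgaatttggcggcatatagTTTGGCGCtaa
E2f3: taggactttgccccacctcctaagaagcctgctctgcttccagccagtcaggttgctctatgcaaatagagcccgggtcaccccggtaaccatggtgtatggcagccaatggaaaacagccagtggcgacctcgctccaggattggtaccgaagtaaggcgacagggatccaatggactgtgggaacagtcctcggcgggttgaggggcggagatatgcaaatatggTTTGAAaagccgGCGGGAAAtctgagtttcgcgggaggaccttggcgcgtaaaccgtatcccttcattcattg
E2f7: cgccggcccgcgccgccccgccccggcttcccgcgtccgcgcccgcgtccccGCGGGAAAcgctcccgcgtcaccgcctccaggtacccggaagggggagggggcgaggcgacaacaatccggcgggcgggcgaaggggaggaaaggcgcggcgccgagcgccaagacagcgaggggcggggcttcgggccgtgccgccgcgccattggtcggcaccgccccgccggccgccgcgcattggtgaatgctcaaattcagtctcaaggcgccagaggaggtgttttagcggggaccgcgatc
E2f8: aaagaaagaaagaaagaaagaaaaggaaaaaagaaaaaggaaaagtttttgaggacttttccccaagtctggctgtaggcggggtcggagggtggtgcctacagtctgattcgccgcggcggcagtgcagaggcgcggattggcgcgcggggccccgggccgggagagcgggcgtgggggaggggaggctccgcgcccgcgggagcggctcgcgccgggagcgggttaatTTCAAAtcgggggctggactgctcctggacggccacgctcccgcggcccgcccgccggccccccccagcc
Tfdp1: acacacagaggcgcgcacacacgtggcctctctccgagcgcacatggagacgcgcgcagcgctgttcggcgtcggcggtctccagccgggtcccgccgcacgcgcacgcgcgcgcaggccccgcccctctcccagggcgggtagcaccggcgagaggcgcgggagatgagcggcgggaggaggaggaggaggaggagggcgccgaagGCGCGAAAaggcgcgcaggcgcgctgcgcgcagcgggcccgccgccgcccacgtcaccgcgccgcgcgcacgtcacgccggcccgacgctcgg
Rbl1: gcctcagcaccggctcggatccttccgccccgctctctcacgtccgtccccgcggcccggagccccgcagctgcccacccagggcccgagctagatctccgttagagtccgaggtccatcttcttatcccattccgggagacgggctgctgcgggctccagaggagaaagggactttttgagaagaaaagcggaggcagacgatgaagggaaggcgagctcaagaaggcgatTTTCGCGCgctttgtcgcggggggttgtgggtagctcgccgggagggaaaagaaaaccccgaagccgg
Rbl2: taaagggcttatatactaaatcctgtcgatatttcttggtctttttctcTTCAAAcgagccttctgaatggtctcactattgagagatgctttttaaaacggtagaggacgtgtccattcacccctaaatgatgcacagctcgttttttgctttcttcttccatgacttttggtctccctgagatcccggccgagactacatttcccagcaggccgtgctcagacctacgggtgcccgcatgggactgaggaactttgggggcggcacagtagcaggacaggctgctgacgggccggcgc
The Rbl1 window, chr2:157204485-157204784 on the minus strand, held TTTCGCGC at -18. The Tfdp1 window, chr8:13338501-13338800 on the plus strand, held the same motif on the opposite strand at -43. In E2f3 (chr13:29986014-29986313, minus strand) a CHR motif began at -23 and an E2F motif on the opposite strand at -11. The E2f2 window (chr4:136172024-136172323, plus strand) held TTTGGCGC 40 bases into the transcript, and that of E2f7 (chr10:110745189-110745488, plus strand) an E2F motif on the opposite strand at -198. E2f8 (chr7:48881547-48881846, minus strand) had a CHR motif on the opposite strand at -20 and none of the 4 E2F motifs in this window, which lies inside the annotated gene. Rbl2 (chr8:91069807-91070106, plus strand), a pocket protein gene that did not pass, is shown beside Rbl1 and held a CHR motif on the opposite strand at -201. Of the windows not printed, that of E2f2 held a CHR motif at -31 and no E2F motif, that of E2f3 held neither, and that of Tfdp1 overlaps the printed one and holds the same E2F motif. Over the 11 windows of 8 family genes, 6 windows of 5 genes held an E2F motif and 4 windows of 4 genes a CHR motif. Of all 32851 promoter windows, 2.26% held an E2F motif and 17.9% a CHR motif, and of the windows of genes tested here 4.22% and 12.9%. The single window listed for E2f1 also lay inside the annotated gene and held neither. These matches describe letters and not bound sites.

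Of the activator genes, which drive entry into S phase, E2f2 and E2f3 fell and E2f1 did not pass. E2f1, on chromosome 2 from 154559400 to 154569892, had 7.38, 8.43 and 7.8 FPKM in knockout, against 6.19, 6.61 and 7.3 FPKM in WT. The lowest knockout library was just above the highest WT library. Its log2 fold change was 0.23 with a 95% interval of -0.10 to 0.55 (adjusted p = 0.363, edgeR), an interval that lies above the changes fitted for E2f2 and E2f3. It stayed between 0.19 and 0.28 in all 14 alternative fits, with adjusted p between 0.315 and 0.521. The expected counts of E2f1 were not whole numbers in any library, so part of its reads were divided with other sequences.

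E2f2, on chromosome 4 from 136172274 to 136196057, fell to 2.6, 2.01 and 2.96 FPKM in knockout, against 6.3, 3.71 and 5.76 FPKM in WT. The groups did not overlap, and WT replicate 2 was the lowest of its group. The fitted log2 fold change was -1.13 (SE 0.25, adjusted p = 0.0163, edgeR), 2.19-fold lower in knockout. The call was lost without knockout replicate 1 (adjusted p = 0.0553), WT replicate 1 (0.0529) or WT replicate 3 (0.0695), with log2 fold changes of -1.14, -0.95 and -1.07.

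E2f3, on chromosome 13 from 29906575 to 29986064, fell to 0.7, 0.94 and 0.89 FPKM in knockout, against 1.68, 1.67 and 2.17 FPKM in WT. Its level was under 1 FPKM in each knockout library and over it in each WT library. In the fit the log2 fold change was -1.21 (SE 0.25, adjusted p = 0.0111, edgeR), and without WT replicate 3 it was -1.07 with an adjusted p of 0.0574. On log2(FPKM + 1) in limma its adjusted p was 0.0526. The 3 activator genes together came to 10.68, 11.38 and 11.65 FPKM in knockout and to 14.17, 11.99 and 15.23 FPKM in WT. E2f1 made up 69.1%, 74.1% and 67.0% of that sum in the knockout libraries and 43.7%, 55.1% and 47.9% in the WT libraries. The ratio of E2f1 to E2f2 was 2.84, 4.19 and 2.64 in knockout, against 0.98, 1.78 and 1.27 in WT. No test was run on these ratios, which share their libraries with the fits above. As ratios within a library they do not depend on how libraries are scaled.

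The atypical E2F genes fell the most. E2f7, on chromosome 10 from 110745439 to 110787384, had 0.09, 0.63 and 0.21 FPKM in knockout, against 2.36, 1.68 and 4.01 FPKM in WT. These levels rest on 4, 27 and 9 counts in knockout and on 110, 79 and 185 counts in WT. The groups stood well apart, and knockout replicate 2 was the highest of its group. The fitted level was 8.76-fold lower in knockout, a log2 fold change of -3.13 with an SE of 0.54 (adjusted p = 0.00493, edgeR).

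E2f8, on chromosome 7 from 48866429 to 48882073, had 0.58, 1.58 and 0.61 FPKM in knockout, against 3.74, 4.36 and 6.95 FPKM in WT. Again the groups did not overlap and knockout replicate 2 was the highest of its group. E2f8 was 5.53-fold lower in knockout, a log2 fold change of -2.47 with an SE of 0.38 (adjusted p = 0.00256, edgeR). Knockout replicate 2 was also the knockout library with the highest B cell marker sum. With that library left out, the log2 fold changes were -4.14 for E2f7 and -3.06 for E2f8, and with the covariate for B cell markers they were -2.81 and -2.09, all past the threshold. E2f7 and E2f8 together came to 0.67, 2.21 and 0.82 FPKM in knockout and to 6.1, 6.04 and 10.96 FPKM in WT. Set over the sum of the activators, this was a ratio of 0.063, 0.19 and 0.070 in knockout, against 0.43, 0.50 and 0.72 in WT. Within the pair, E2f8 exceeded E2f7 in every library. The expected counts of E2f8, like those of E2f1, were not whole numbers in any library. The annotated antisense transcript Gm2788 shares 610 of the 5443 exon bases of E2f8, and 1700020G17Rik shares 86 of the 9009 exon bases of E2f7. No source used here says whether the counting used strand, so reads of such a pair cannot be separated.

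**Figure D2:**
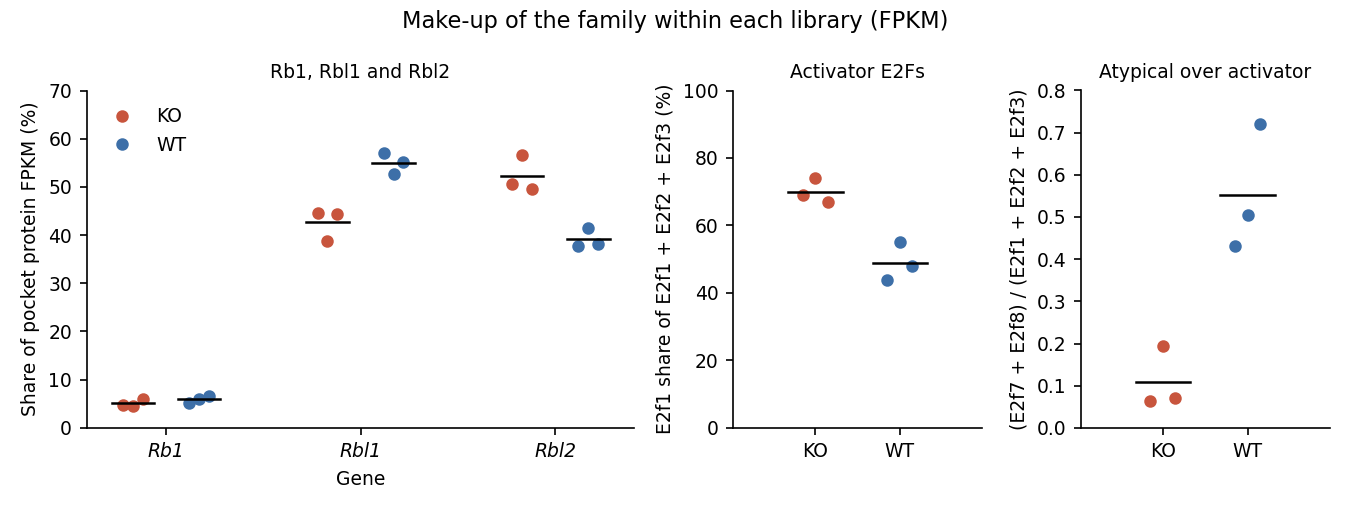
Make-up of the family within each library, from FPKM, with knockout libraries left (red) and WT libraries right (blue); points are libraries and black bars are means. Left, the share of Rb1, Rbl1 and Rbl2 in their sum, where Rbl2 lies between 49.5% and 56.6% in knockout and between 37.8% and 41.4% in WT; middle, the share of E2f1 among the 3 activators; right, E2f7 and E2f8 over the 3 activators.

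The repressor gene E2f4 and the DP partner gene Tfdp1 were among the more abundant members. Tfdp1, on chromosome 8 from 13338725 to 13378448, fell to 14.18, 16.12 and 14.08 FPKM in knockout, against 22.18, 22.81 and 29.98 FPKM in WT. The groups did not overlap. Its log2 fold change was -0.77 (SE 0.14, adjusted p = 0.00553, edgeR), 1.70-fold lower in knockout, and the call held in every alternative, with log2 fold changes between -0.85 and -0.63. E2f4, on chromosome 8 from 105297663 to 105305370, had 19.26, 21.47 and 18.71 FPKM in knockout, against 20.64, 25.65 and 27.13 FPKM in WT. Knockout replicate 2 lay above WT replicate 1, so the groups overlapped. Its log2 fold change of -0.32 had a 95% interval of -0.59 to -0.04 and did not pass after adjustment (adjusted p = 0.128, edgeR). The ratio of E2f4 to Tfdp1 was 1.36, 1.33 and 1.33 in knockout, against 0.93, 1.12 and 0.90 in WT.

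Of the pocket protein genes, Rbl1 fell, and Rbl2 and Rb1 did not pass. Rbl1 (p107), on chromosome 2 from 157145893 to 157204534, fell to 19.13, 16.67 and 18.56 FPKM in knockout, against 28.49, 26.91 and 32.84 FPKM in WT. No knockout library reached the lowest WT library. Its log2 fold change was -0.67 (SE 0.13, adjusted p = 0.00966, edgeR), 1.59-fold lower in knockout, and its adjusted p lay between 0.000336 and 0.0496 over 14 alternatives, the highest without WT replicate 3. Rbl2 (p130), on chromosome 8 from 91070057 to 91123844, had 21.67, 24.31 and 20.71 FPKM in knockout, against 18.87, 21.15 and 22.66 FPKM in WT. These ranges overlapped, and the log2 fold change of 0.07 had a 95% interval of -0.15 to 0.30 (adjusted p = 0.680, edgeR). That interval lies above the change fitted for Rbl1. Exons of Aktip and Gm45464 on the opposite strand share 693 and 892 of the 7558 exon bases of Rbl2.

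Rb1, on chromosome 14 from 73192858 to 73325951, had the lowest level of the pocket genes, with 2.03, 1.96 and 2.53 FPKM in knockout, against 2.54, 3.06 and 3.95 FPKM in WT. The highest knockout library lay just under the lowest WT library. Its log2 fold change of -0.56 had a 95% interval of -1.05 to -0.07 and did not pass after adjustment (adjusted p = 0.132, edgeR). Lpar6 and Rcbtb2 on the opposite strand share 408 and 488 of its 6015 exon bases. Over the 6 libraries Lpar6 had 2337 counts and Rcbtb2 2115. Rb1 had 239 counts in the knockout libraries and 376 in the WT libraries. The caution on strand given for E2f7 and E2f8 holds for Rb1 and Rbl2 too. Of the summed pocket protein FPKM, Rbl1 held 44.7%, 38.8% and 44.4% in knockout and 57.1%, 52.6% and 55.2% in WT. Rbl2 held 50.6%, 56.6% and 49.5% in knockout and 37.8%, 41.4% and 38.1% in WT, and Rb1 between 4.56% and 6.05% in knockout and between 5.09% and 6.64% in WT. The ratio of Rbl2 to Rbl1 was 1.13, 1.46 and 1.12 in knockout, above 1 in each library, against 0.66, 0.79 and 0.69 in WT, below 1 in each.

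**Figure D3:**
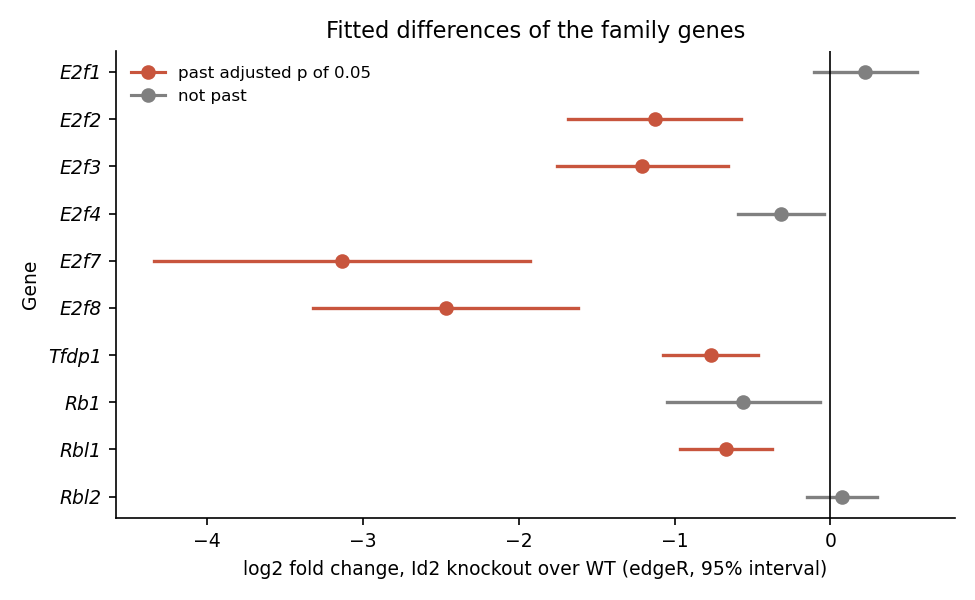
Log2 fold change of each family gene, knockout over WT, as fitted by edgeR, with its 95% interval before adjustment; red marks genes past an adjusted p of 0.05 and grey those not past. E2f7 (-3.13) and E2f8 (-2.47) lie farthest to the left, and E2f1 (0.23) and Rbl2 (0.07) are the members above 0.

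Ranked by mean FPKM, Rbl2 came first in knockout with 22.2 ± 1.86, followed by E2f4 with 19.8 ± 1.46, Rbl1 with 18.1 ± 1.29, Tfdp1 with 14.8 ± 1.15 and E2f1 with 7.87 ± 0.53 (SD, n = 3). The ranges of Rbl2 and E2f4 and of E2f4 and Rbl1 overlapped, while those of Rbl1 and Tfdp1 and of Tfdp1 and E2f1 did not. Lower in knockout stood E2f2 with 2.52 ± 0.48, Rb1 with 2.17 ± 0.31, E2f8 with 0.92 ± 0.57, E2f3 with 0.84 ± 0.13 and E2f7 with 0.31 ± 0.28 (SD, n = 3). In WT the order began with Rbl1 at 29.4 ± 3.07, Tfdp1 at 25.0 ± 4.33, E2f4 at 24.5 ± 3.4 and Rbl2 at 20.9 ± 1.91 (SD, n = 3), where each range overlapped the next. It went on with E2f1 at 6.7 ± 0.56, E2f2 at 5.26 ± 1.37, E2f8 at 5.02 ± 1.70, Rb1 at 3.18 ± 0.71, E2f7 at 2.68 ± 1.2 and E2f3 at 1.84 ± 0.29 (SD, n = 3). From E2f1 downward, neighbouring ranges in WT overlapped all the way. Rbl2 thus ranked 1 of the 10 in knockout and 4 in WT.

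Across the 6 libraries, the level of E2f8, as log2(FPKM + 1), had a Pearson r of 0.98 with E2f7, 0.99 with Tfdp1, 0.98 with E2f3, 0.90 with Rbl1 and 0.77 with E2f2, which fell as well. With members that did not pass it was 0.89 for E2f4, 0.81 for Rb1, -0.06 for Rbl2 and -0.53 for E2f1, so the values for E2f4 and Rb1 were above that for E2f2. These values describe 6 libraries in 2 groups, so the difference between the groups enters each of them. Among all tested genes with a mean of at least 5 FPKM, the closest to E2f3 were Pola1 (DNA polymerase alpha), Hnrnpa1 and Dut (dUTPase), each with a Pearson r of 0.999. Closest to E2f8 were Tipin, a replication fork gene, Fabp5 and Pgam1, closest to E2f7 Slc7a11, Nrm and Incenp, and closest to Tfdp1 Nhp2, Brip1os and Tubg1. For Rbl1 they were Lbr, Insl6 and Tbx21, and for E2f2 Cdc42, Agpat4 and 1810009A15Rik. All of these r values were at least 0.989 over 6 libraries.

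The family members outside the 10 did not pass. E2f5, which encodes another E2F that works with p130, had 5.53 ± 0.64 FPKM in knockout and 5.07 ± 0.21 in WT (SD, n = 3). E2f6, a repressor that does not bind pocket proteins, had 1.6 ± 0.27 FPKM in knockout and 1.35 ± 0.55 in WT, and the DP gene Tfdp2 had 3.12 ± 0.81 in knockout and 3.12 ± 0.43 in WT (SD, n = 3). Their log2 fold changes were 0.11, 0.24 and 0.00, and none of these 3 passed in edgeR, DESeq2 or limma or at an unadjusted p under 0.05.

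Of the genes of the MuvB complex and its partners, 3 of 7 fell, against 8.77% lower over all genes tested. MuvB joins p107 or p130 with E2F4 to form the repressive DREAM complex in resting cells, and joins B-Myb (Mybl2) and FoxM1 to activate mitotic genes later. Mybl2 fell to 0.88 ± 0.49 FPKM in knockout, against 6.64 ± 1.12 in WT (SD, n = 3), a log2 fold change of -2.93 (adjusted p = 0.000509, edgeR). Foxm1 fell to 0.997 ± 0.35 FPKM in knockout, against 3.7 ± 1.15 in WT (log2 fold change -1.91, adjusted p = 0.00379). Mybl2 and Foxm1 reached 1 FPKM in each WT library and, among knockout libraries, in replicate 2 alone. Their passing of the filter leaned on the group where they were higher. Of the MuvB core genes, Lin54, which encodes the subunit that contacts DNA, fell to 7.55 ± 1.41 FPKM in knockout, against 11.02 ± 0.66 in WT (log2 fold change -0.57, adjusted p = 0.0360). That call was lost without knockout replicate 3 (adjusted p = 0.156) or WT replicate 1, 2 or 3 (0.0911, 0.0509 and 0.127), with the B cell covariate (0.0563) and in limma (0.0699 with a pseudocount of 1). Lin9, Lin37, Lin52 and Rbbp4 had log2 fold changes of -0.10, 0.12, 0.13 and -0.24 and did not pass. Of these, Rbbp4 did not overlap between the groups and was lower at an unadjusted p under 0.05 in edgeR (adjusted p = 0.116).

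The cyclins, kinases and inhibitors that act on pocket proteins in G1 were measured too. Of 13 tested, 6 fell and none rose in edgeR, against 8.77% lower and 3.14% higher over all genes tested. The median log2 fold change of the 13 was -0.45. The cyclin E genes Ccne1 and Ccne2 fell to 5.73 ± 2.77 and 3.36 ± 1.45 FPKM in knockout, against 22.8 ± 5.08 and 14.8 ± 3.50 in WT (SD, n = 3), with log2 fold changes of -2.01 and -2.14. The gene of their kinase, Cdk2, fell to 11.97 ± 1.11 FPKM in knockout, against 23.5 ± 2.17 in WT (log2 fold change -0.96). The kinase genes Cdk4 and Cdk6 fell by 0.73 and 0.81 on the log2 scale. The cyclin D genes Ccnd2 and Ccnd3 did not pass in edgeR, with log2 fold changes of -0.01 and -0.33, and Ccnd1 was under 1 FPKM everywhere. Ccnd3 did not overlap between the groups and was lower at an unadjusted p under 0.05 in edgeR (adjusted p = 0.0854). It passed in DESeq2 (adjusted p = 0.0491). The inhibitor gene Cdkn1a (p21) fell to 5.94 ± 2.53 FPKM in knockout, against 57.2 ± 15.2 in WT (log2 fold change -3.28, adjusted p = 0.000125, edgeR). Cdkn1b (p27) had 83.7 ± 4.56 FPKM in knockout and 71.3 ± 13.1 in WT and did not pass (adjusted p = 0.362). The adjusted p of the other 5 genes that fell lay between 0.000742 and 0.00893.

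Of 8 genes of corepressors that pocket proteins recruit, 2 fell, against 8.77% lower over all genes tested. The median log2 fold change of the 8 was -0.13. The 2 were the histone deacetylase gene Hdac2, at 10.3 ± 0.99 FPKM in knockout and 14.9 ± 1.77 in WT (adjusted p = 0.0470, edgeR), and Rbbp7, at 138 ± 12.4 FPKM in knockout and 185 ± 20.9 in WT (adjusted p = 0.0333). Hdac2 lost its call with each of the 6 libraries left out in turn (adjusted p between 0.0514 and 0.199). Rbbp7 lost it when knockout replicate 2 (adjusted p = 0.0628), knockout replicate 3 (0.169), WT replicate 2 (0.0756) or WT replicate 3 (0.127) was left out. Hdac1 did not overlap between the groups and was lower at an unadjusted p under 0.05. Its log2 fold change of -0.35 did not pass in edgeR (adjusted p = 0.0829). In this list Kdm5a, a histone demethylase gene, was higher at an unadjusted p under 0.05 and with DESeq2 (adjusted p = 0.0449), with a log2 fold change of 0.27 that did not pass in edgeR (adjusted p = 0.0847). Kdm5a was the single gene of the 6 lists to be higher by either of these, and none was higher in limma.

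Of 38 known E2F target genes of DNA replication and repair, all tested, 33 fell and none rose in edgeR, against 8.77% of all genes lower. The median of their log2 fold changes was -1.36. Mcm10, Chek1 and Brca1, which fell, reached 1 FPKM in each WT library and, among knockout libraries, in replicate 2 alone. The passing of these genes leaned on the group where they were higher. Rrm2, the small ribonucleotide reductase subunit, had 12.3 ± 7.08 FPKM in knockout and 118 ± 22.9 in WT (SD, n = 3). Rrm1, the large subunit, had 23.2 ± 4.57 FPKM in knockout and 73.3 ± 18.7 in WT. Uhrf1, which keeps DNA methylation at replication forks, had 9.72 ± 2.18 FPKM in knockout and 43.6 ± 12.1 in WT, and the thymidine kinase gene Tk1 had 4.22 ± 2.34 in knockout and 36.2 ± 11.4 in WT. These 4 had the smallest p-values of the list, with adjusted p between 0.000282 and 0.000449. Those that did not pass included Gins3, with 2.28 ± 0.87 FPKM in knockout and 4.5 ± 1.17 in WT, and Cdt1, Nasp and Msh6, with log2 fold changes between -0.37 and -0.26.

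The list of G2 and M phase genes with CHR-type control held 26 genes, of which Cdc25c did not pass the filter. Ttk and Cenpf reached 1 FPKM in the WT libraries alone. Bub1 and Cenpe reached it in each WT library and in knockout replicate 2, and Cdk1 also in knockout replicates 2 and 3. The passing of these genes thus leaned on the group where they were higher. In this list 25 of 25 genes tested fell, against 8.77% of all genes lower. The log2 fold changes of the 25 genes lay between -3.37 and -0.84 around a median of -2.85. Their smallest p-values were those of Ccnb2 (cyclin B2), with 7.24 ± 2.33 FPKM in knockout and 66.9 ± 14.8 in WT, Aurkb (the mitotic kinase Aurora B), with 2.7 ± 1.16 in knockout and 27.6 ± 5.84 in WT, Nek2, a centrosome kinase gene, with 1.46 ± 0.30 in knockout and 13.4 ± 4.03 in WT, and the kinesin gene Kif20a, with 5.44 ± 0.21 in knockout and 17.6 ± 2.57 in WT (SD, n = 3). Of the promoter windows, 14 of 36 of the replication list held an E2F motif and 17 of 22 of the G2/M list a CHR motif. Over the windows of genes tested these shares were 4.22% and 12.9%. A CHR motif was in 6 of the 36 windows, and an E2F motif in 1 of the 22. Both lists were chosen as genes under such control and with earlier results of these data known, so all these counts are a description.

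**Figure D4:**
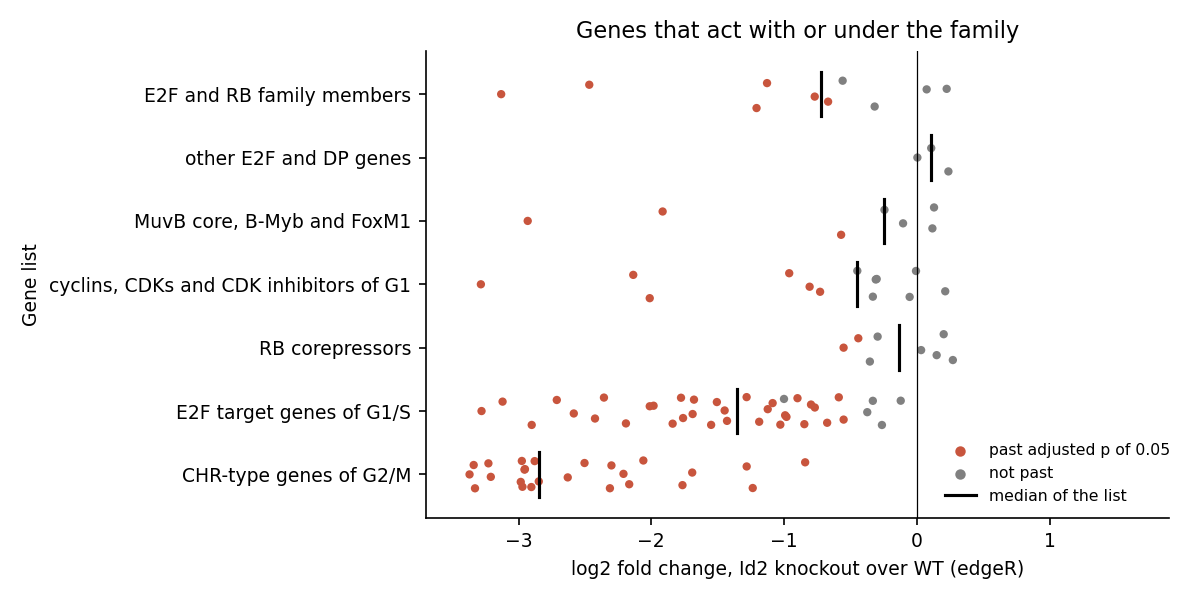
Log2 fold change, knockout over WT, of the family genes and of 6 lists of genes that act with or under them; each point is a gene, red past an adjusted p of 0.05 and grey not past, and black bars are list medians. The medians run from -2.85 for the G2/M list and -1.36 for the replication list to 0.11 for the other E2F and DP genes.

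The summed FPKM of the replication list was 772, 980 and 739 in knockout, against 1673, 1591 and 2000 in WT, and that of the G2/M list was 102, 155 and 98.0 in knockout, against 638, 563 and 911 in WT. Knockout replicate 2 was the highest knockout library in both sums, as it was for E2f1, E2f3, E2f4, E2f7, E2f8, Rbl2 and Tfdp1, while it was the lowest for E2f2, Rb1 and Rbl1. WT replicate 3 was the highest WT library in both sums, as it was for every family gene but E2f2. E2f1 and the E2F target Rrm2 stood the other way round from each other: each knockout library was above each WT library for E2f1, which did not pass, and below each WT library for Rrm2.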

How the data were processed

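Total RNA of 6 samples was made into libraries with Illumina protocols, per the labels. Bowtie2, RSEM, CASAVA and the build mm10 are named, without versions, in the submitters' processing notes. Per the file headers, the deposited tables give an expected count and an FPKM value for each gene and a transcript length in bases as a further value (unit other). A gene not listed in a library was taken as 0. Tables were joined by NCBI gene number, and 16707 of 16749 numbers had a RefSeq symbol. Expected counts, of which 25.0% to 26.2% per library were not whole, were rounded, scaled by TMM and tested with edgeR 4.0.16 in R 4.3.3 on 10890 genes. The standard error is the log2 fold change over the square root of F. The biological coefficient of variation was 0.156. Alternatives were DESeq2 1.42.0, its size factors, limma 3.58.1 on log2(FPKM + 1) and log2(FPKM + 0.1), no filter, an FPKM minimum of 5, a replicate block, a B cell marker covariate and each library left out. No libraries were duplicates (chi-square per degree of freedom 5.19 to 16.4 within groups). Gene positions are those of RefSeq on GRCm38.p6, and exon overlaps those of the GENCODE annotation of GRCm38. Scripts were tested on simulated data. Named genes of the pathway lists were every member of lists of up to 7 genes, and for longer lists up to 4 with the smallest p; this rule was not applied to the marker lists, where single markers of NK, germinal centre B, plasma and myeloid cells were named after their values were seen. Cdk4, Cdk6, Ccnd1, Ccnd2, Ccnd3, Cdkn1b, Kdm5a, the named ratios and genes that did not pass were added after their values were seen. So were the list genes named because their passing of the filter leaned on WT. The members, lists and tests were chosen with earlier results of these data known. Protein sequences, and promoters of E2f4 and Rb1, were not used here.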

Additional observations from a re-analysis of the deposited data

How the results depend on the processing

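The number of family genes that fell was 6 in the fit reported and between 5 and 6 with DESeq2, its size factors, limma, no filter, the replicate block or the B cell covariate. With an FPKM minimum of 5, 5 of the 10 were tested and 2 fell. It was between 4 and 6 without 1 library, and 4 without WT replicate 3, where E2f2 and E2f3 lost their calls. E2f3 also lost its call in limma (adjusted p = 0.0526 and 0.0656 with pseudocounts of 1 and 0.1). E2f7 stood at -1.46 in limma with a pseudocount of 1, which compresses low levels. No family gene changed direction in any of these fits. Over all genes, the number higher was between 84 and 480 without 1 library, and the number lower between 517 and 1082. Those more than 1.5 times below the numbers reported were 84 higher and 517 lower without knockout replicate 3, 121 higher and 564 lower without WT replicate 3, 213 higher without knockout replicate 1 and 210 higher without WT replicate 2. Of the corepressor genes, 1 was higher with DESeq2. The number lower there was 1 with DESeq2 size factors in edgeR, limma with a pseudocount of 0.1, no filter, the replicate block or the B cell covariate, and 0 to 1 without 1 library (0 without knockout replicate 2 or 3 or WT replicate 2 or 3). The causes were not tested. Nothing in the labels says that the replicate numbers pair the samples. Deviations of libraries with the same number had r = 0.072, 0.039 and -0.052, and not every library was closest to its own number. With 3 libraries per group these values cannot settle whether samples were paired. With the replicate number as a block, 295 genes were higher and 888 lower, against 342 and 955. E2f3, E2f7 and E2f8 had few counts in knockout, which limits the precision of their fold changes.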
